A study of Homo sapiens with 12 samples.

Results

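The annexins are calcium-dependent proteins that bind acidic phospholipids on the inner face of membranes. Their shared core holds the calcium sites, and their variable N-terminal tails bind partners such as the S100 proteins. In epithelial and breast cells they are known for roles in vesicle trafficking, membrane repair and the cell surface, and ANXA2, joined to S100A10 in a heterotetramer, is best known as a surface receptor for plasminogen and its activator. The 10 members described here, ANXA1 to ANXA9 and ANXA11, were chosen by gene symbol from the annotation of the array and are read by 19 of its 47323 probes. Of these 10 genes, 9 had a probe above background on at least 2 of the 12 arrays and entered the test over 10491 genes. The remaining one, ANXA9, an annexin whose calcium sites have degenerated, had intensities from 86.8 to 102 on the 12 arrays, all at background.

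Messenger RNA was measured on Illumina bead arrays in MCF10A, an immortalised, non-tumorigenic breast epithelial line, and in MDA-MB-231, a triple-negative breast cancer line. Each line was transfected for 48 h with 30 nM of a miRNA mimic, using the same lipid reagent in all groups, and the 12 arrays form 6 groups of 2. The groups are 5'isomiR-140-3p, hsa-miR-140-3p and control mimics in MCF10A, and the same 3 in MDA-MB-231. Below, the first mimic is also called the 5'isomiR and the second the canonical mimic. The controls are mimic-ctrl1 and mimic-ctrl2, each on 1 array per line, so the spread of the controls includes any difference between them. Both mimics were set against the same control arrays, so these comparisons are not independent. The methods call the arrays of each mimic biological replicates, and each control mimic was used once per line, so the p-values rest on the spread within pairs of arrays. A mimic is a synthetic duplex given at a high dose, and levels reached this way are not those of the endogenous miRNA.

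The mimics differ by a shift of 1 base at the 5′ end, which moves the seed, the stretch of bases 2 to 8 that pairs with target messages. Their sequences are shown because the mimics are compared with each other below. Both come from the MIR140 hairpin in RefSeq, on the plus strand of chromosome 16 of GRCh38.p14, at chr16:69933143-69933164 for the 5'isomiR and chr16:69933142-69933162 for the canonical miRNA. The ends of the 5'isomiR are those the methods give. The mimics share 20 bases, and the 5'isomiR runs 2 bases further at the 3′ end. Written 5′ to 3′ with the seed in capitals, they read:
5'isomiR-140-3p: aCCACAGGguagaaccacggac
hsa-miR-140-3p: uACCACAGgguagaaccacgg

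Correlations were 0.992 to 0.995 between replicate arrays of a mimic and 0.981 to 0.985 between mimic-ctrl1 and mimic-ctrl2, and no array stood apart from its line. Background, set on each array by the 0.99 quantile of probes for olfactory receptor genes, lay at intensities of 129 to 142. All 5 markers of basal mammary epithelium with a probe passed the test as lower in MDA-MB-231 than in MCF10A, among them KRT5, KRT14, CDH1 and DSG3, which were at background on all MDA-MB-231 arrays. The mesenchymal markers VIM and AXL were higher in MDA-MB-231, SNAI2 was lower, and ZEB1, SPARC and FN1 were at background in both lines. A gene is said to have passed the test, to be lower or to be higher if it lay under 65% of the group it was set against, or exceeded it by over 65%, and its adjusted p was under 0.05 in limma's moderated test over all 10491 genes. In a bulk culture, fewer cells that make a message and less message per cell cannot be told apart.

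ANXA2 was lower with 5'isomiR-140-3p in both lines. In MCF10A its normalised log2 intensity was 12.85 and 12.89 with the 5'isomiR, 13.64 and 13.62 with the canonical mimic, and 13.82 and 14.05 with mimic-ctrl1 and mimic-ctrl2. In MDA-MB-231 it was 13.25 on both 5'isomiR arrays, 13.80 and 13.90 with the canonical mimic, and 13.96 with both control mimics. In each line the 5'isomiR arrays were the lowest, the canonical arrays came next and the control arrays were the highest, without overlap. Against the control mimics, ANXA2 with the 5'isomiR stood at 47.8% in MCF10A (log2 difference -1.07, SE 0.12, adjusted p = 0.00027), with 61.1% in MDA-MB-231 (-0.71, SE 0.12, adjusted p = 0.0044). The effect in MDA-MB-231 minus that in MCF10A was 0.35 on the log2 scale (95% interval -0.01 to 0.72, adjusted p = 0.26), so a difference between the lines was not shown. The SD of 0 within the MDA-MB-231 control and 5'isomiR pairs arose because quantile normalisation gives arrays with the same rank the same value, and the deposited intensities there were 9851 and 9881 for the 5'isomiR, against 16049 and 16109 for the controls. With any single array left out, the log2 difference ran from -1.18 to -0.95 in MCF10A cells. In MDA-MB-231 it stayed at -0.71, which the equal values within each pair fix in advance, so it does not measure stability there. The methods name no test for the arrays. Their general unpaired test, which estimates the spread of each gene alone, was applied here as a stand-in for the array analysis of the study. It did not pass ANXA2 in MCF10A after adjustment over all genes (adjusted p = 0.18).

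**Figure D1:**
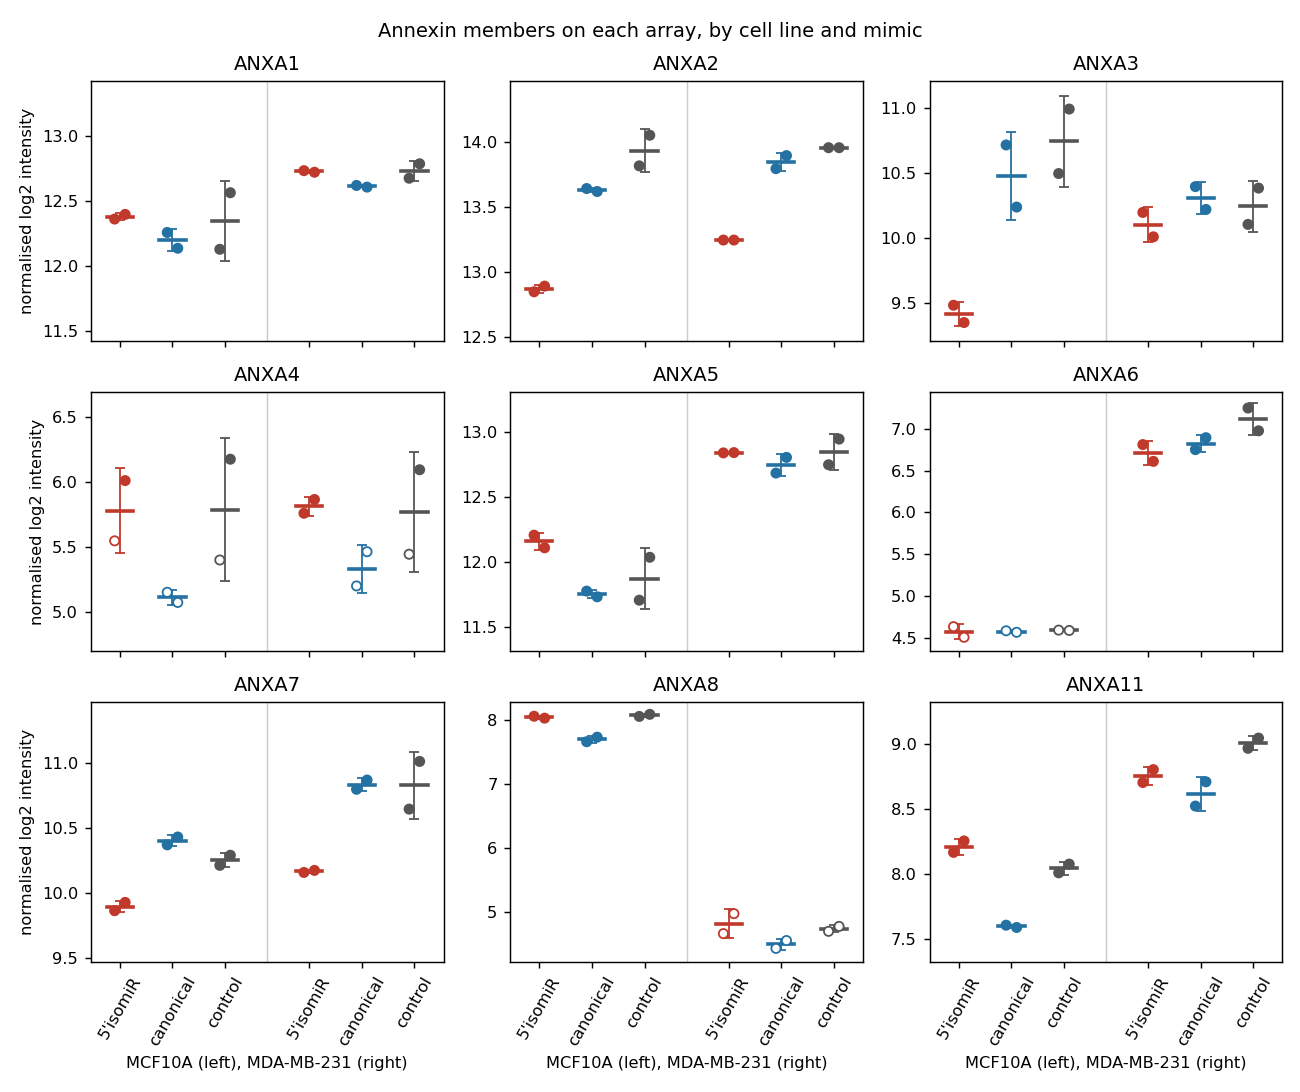
Normalised log2 intensity (vertical axis) of the 9 annexins tested on each of the 12 arrays, by mimic (canonical is hsa-miR-140-3p), with MCF10A left and MDA-MB-231 right in each panel. Points are arrays, open where the probe was at background, bars are means and whiskers are SD (n = 2). The 5'isomiR arrays lie lowest for ANXA2 in both lines, at 12.85 and 12.89 in MCF10A cells and 13.25 in MDA-MB-231.

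The other annexins showed that ANXA2 was not alone in its direction. With the 5'isomiR against control mimics, 2 of the 9 annexins were lower in MCF10A, ANXA2 and ANXA3, where 7.34% of all genes tested were lower. None was higher, against 5.25% of all genes. In MDA-MB-231, 2 of 9 were lower, ANXA2 and ANXA7, where 5.09% of all genes were lower, and none was higher, against 2.41%. The median log2 difference over the 9 annexins was -0.02 in MCF10A cells and -0.14 in MDA-MB-231, beside 0.01 over all genes in each line. These medians include ANXA4, which was mostly at background, ANXA6, at background in MCF10A, and ANXA8, at background in MDA-MB-231. Over the 7 annexins above background on every array of a line, the median was -0.03 in MCF10A cells and -0.25 in MDA-MB-231. Counts of 2 in 9 are a description, and nothing is read from them about the family as a whole.

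ANXA3, an annexin abundant in neutrophil granules, fell in MCF10A cells given 5'isomiR-140-3p. Its log2 intensity there was 9.48 and 9.35 with the 5'isomiR, 10.72 and 10.24 with the canonical mimic, and 10.50 and 10.99 with the control mimics. The 5'isomiR arrays lay below all 4 others, while the canonical and control arrays overlapped. Against controls ANXA3 stood at 39.8% (log2 difference -1.33, SE 0.21, adjusted p = 0.0018), further than any other annexin as read by its brightest probe, though a second probe of ANXA2 described below stood at 38.1%. In MDA-MB-231 the values were 10.20 and 10.01 with the 5'isomiR, 10.39 and 10.22 with the canonical mimic, and 10.10 and 10.38 with the control mimics, so the groups overlapped and the log2 difference from controls was -0.14 (SE 0.21, adjusted p = 0.73). The difference between the lines was itself tested. The effect in MDA-MB-231 minus that in MCF10A was 1.19 (SE 0.29, adjusted p = 0.045), the sole one of 9 annexins to pass, where 2.19% of all genes passed in this direction and 3.29% in the other. This call is near the threshold, and it was lost when any of 8 of the 12 arrays was left out in turn, with adjusted p-values up to 0.15. These were mimic-ctrl2 and both 5'isomiR arrays of MCF10A, and mimic-ctrl1, both canonical and both 5'isomiR arrays of MDA-MB-231.

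ANXA7, also called synexin and known for promoting membrane fusion in exocytosis, fell in MDA-MB-231 cells given 5'isomiR-140-3p. Its log2 intensity was 10.16 and 10.18 with the 5'isomiR, 10.80 and 10.87 with the canonical mimic, and 10.65 and 11.01 with the control mimics. The 5'isomiR arrays lay below the rest, and the canonical values fell between the 2 controls. ANXA7 stood at 63.1% of controls (log2 difference -0.66, SE 0.13, adjusted p = 0.012), just inside the limit of 65%. In MCF10A the values were 9.86 and 9.93 with the 5'isomiR, 10.37 and 10.43 with the canonical mimic, and 10.21 and 10.29 with the control mimics. The order was again 5'isomiR below controls without overlap, at 78.1% (log2 difference -0.36, SE 0.13, adjusted p = 0.089), which did not pass. The difference between lines was -0.31 (95% interval -0.73 to 0.11, adjusted p = 0.40). The call in MDA-MB-231 was lost without mimic-ctrl2 (log2 difference -0.48), without 5'isomiR replicate 1 (adjusted p = 0.076), without 5'isomiR replicate 2 (adjusted p = 0.065) and when the line was fitted on its own (adjusted p = 0.053).

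**Figure D2:**
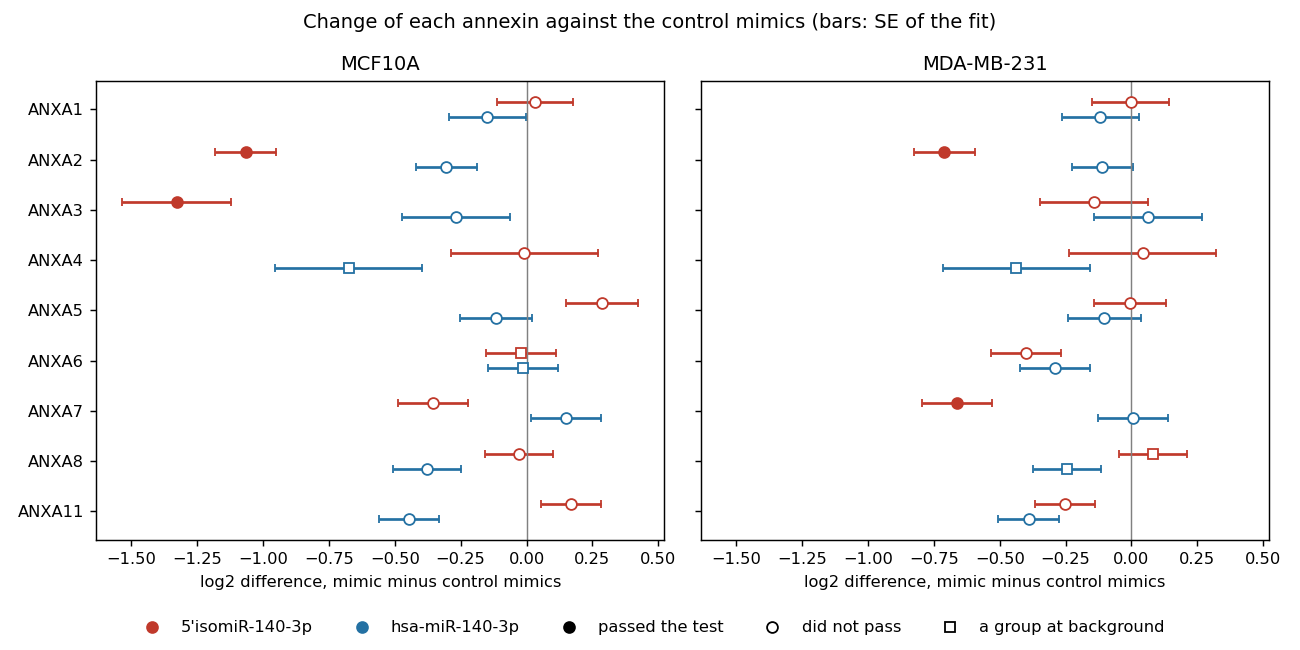
Log2 difference from the control mimics of the same line (horizontal axis) for each tested annexin, with 5'isomiR-140-3p in red and hsa-miR-140-3p in blue. Bars are the SE of the fit, filled markers passed the test, and squares mark a comparison with a group at background. Filled markers are ANXA2 and ANXA3 in MCF10A, and ANXA2 and ANXA7 in MDA-MB-231, all with 5'isomiR-140-3p.

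The other annexins did not pass the test with the 5'isomiR. ANXA1, a mediator of the resolution of inflammation, differed from controls by 0.03 in MCF10A (95% interval -0.29 to 0.36) and by less than 0.01 in MDA-MB-231 (95% interval -0.33 to 0.32). ANXA5, the phosphatidylserine binder used to stain apoptotic cells, stood at 122% of controls in MCF10A (log2 difference 0.29, 95% interval -0.02 to 0.59, adjusted p = 0.17), where its 5'isomiR arrays, at 12.21 and 12.11, lay above the controls, at 11.71 and 12.04. In MDA-MB-231 ANXA5 differed by -0.01 (95% interval -0.31 to 0.30). These 4 intervals of ANXA1 and ANXA5 leave out a fall to 65% of controls. ANXA11, which tethers RNA granules to lysosomes in neurons, differed by 0.17 in MCF10A (adjusted p = 0.34) and by -0.25 in MDA-MB-231 (adjusted p = 0.19). ANXA8, a gene of stratified epithelia, differed by -0.03 in MCF10A (adjusted p = 0.91) and was at background in MDA-MB-231. ANXA6, which has a duplicated annexin core and acts in endocytosis and cholesterol transport, was at background in MCF10A cells and differed by -0.40 in MDA-MB-231 (SE 0.13, adjusted p = 0.082). ANXA4, an annexin of secretory epithelia, was above background on 5 of 12 arrays, with intensities from 117 to 155, and no level of it can be read closely.

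No annexin passed the test with hsa-miR-140-3p against control mimics. In MCF10A 0 of 9 were lower, where 0.724% of all genes were lower, and 0 were higher, against 0.143%. In MDA-MB-231 0 of 9 were lower, where 1.02% of all genes were lower, and 0 were higher, against 0.191%. At an unadjusted p under 0.05 in the same limma fit there were 4 of 9 in MCF10A (ANXA2, ANXA4, ANXA8 and ANXA11) and 1 of 9 in MDA-MB-231 (ANXA11), beside 1457 of 10491 genes in MCF10A cells and 1561 of 10491 in MDA-MB-231. The general unpaired test of the methods, applied here as a stand-in, passed 0 annexins in either line with or without adjustment. ANXA2 stood at 81.0% of controls in MCF10A (log2 difference -0.30, 95% interval -0.56 to -0.05, adjusted p = 0.28), with 92.6% in MDA-MB-231 (-0.11, 95% interval -0.37 to 0.15, adjusted p = 0.73). Among the annexins above background in both lines, and as read by the brightest probe of each, ANXA11 differed most from controls, at 73.4% in MCF10A (log2 difference -0.45, SE 0.11, adjusted p = 0.12), with 76.3% in MDA-MB-231 (-0.39, SE 0.11, adjusted p = 0.15). Its canonical arrays, at 7.60 and 7.59 in MCF10A cells and 8.52 and 8.71 in MDA-MB-231, lay below the control arrays, at 8.01 and 8.07 in MCF10A cells and 8.97 and 9.04 in MDA-MB-231. The difference between the lines in the canonical effect passed for 0 of the 9 annexins and for 0% of all genes. At an unadjusted p under 0.05 the same fit gave 0 of the 9 and 833 of 10491 genes.

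The shifted mimic was next compared directly with the canonical one, at the same dose and time, in 9 annexins and 2 lines. In MCF10A 2 of 9 annexins were lower with the 5'isomiR than with the canonical mimic, ANXA2 and ANXA3, where 6.43% of all genes were lower, and none was higher, against 5.21% of all genes. ANXA2 stood at 59.0% of its level with the canonical mimic (log2 difference -0.76, SE 0.12, adjusted p = 0.0019) and ANXA3 at 47.9% (-1.06, SE 0.21, adjusted p = 0.0067). The call of ANXA3 was lost without canonical replicate 1 (log2 difference -0.82, adjusted p = 0.057), the higher of its canonical arrays. In MDA-MB-231 1 of 9 was lower, ANXA7, at 62.9% (-0.67, SE 0.13, adjusted p = 0.015), where 3.58% of all genes were lower, and none was higher, against 1.45%. That call was lost without any 1 of the 4 arrays it compares, with adjusted p-values of 0.088 to 0.12. ANXA2 in MDA-MB-231 stood at 66.0% of the canonical level (-0.60, 95% interval -0.86 to -0.34, adjusted p = 0.013), past the p limit and just short of the fold limit. At an unadjusted p under 0.05 in the same limma fit, 7 of 9 annexins differed in MCF10A, beside 3407 of all genes. ANXA2, ANXA3 and ANXA7 lay below their canonical level there, and ANXA4, ANXA5, ANXA8 and ANXA11 above it. ANXA4 was at background with the canonical mimic. The median log2 difference was 0.18 over the 9 annexins, beside -0.000942 over all genes. Of those above, only ANXA11 passed the p limit after adjustment. It stood at 1.53 times its canonical level (log2 difference 0.61, SE 0.11, adjusted p = 0.0055), short of the limit of 65% above. Its 5'isomiR arrays, at 8.16 and 8.25, lay above the canonical arrays and also above the controls. Its second probe, ILMN_2380494, gave 0.41 (adjusted p = 0.083 in a fit over all 13705 probes kept). Against the controls that probe differed by -0.08 (adjusted p = 0.75 in the same fit), so it did not lie above them. ANXA7 in MCF10A stood at 70.5% (log2 difference -0.51, adjusted p = 0.026), again short of the fold limit. The 95% intervals for ANXA1 were -0.14 to 0.51 in MCF10A cells and -0.21 to 0.44 in MDA-MB-231, so differences of this size between the mimics remain possible.

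**Figure D3:**
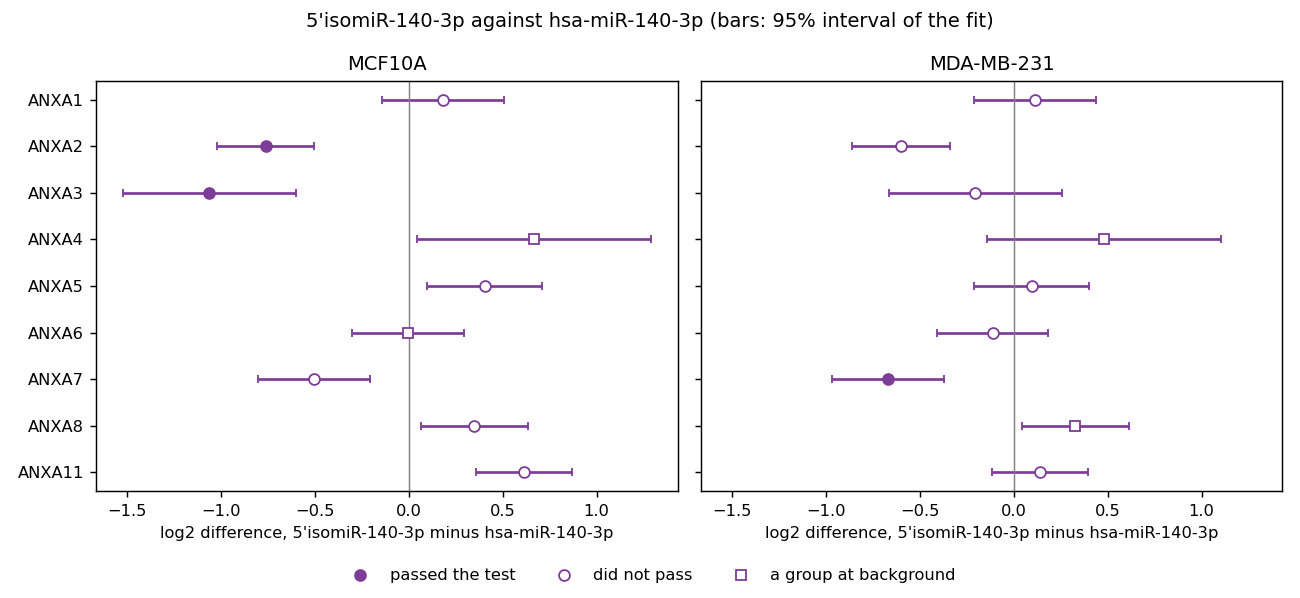
Log2 difference of 5'isomiR-140-3p minus hsa-miR-140-3p (horizontal axis) for each tested annexin in each line, with the 95% interval of the fit. Filled points passed the test, and squares mark a comparison with a group at background. ANXA2 (-0.76) and ANXA3 (-1.06) passed in MCF10A cells and ANXA7 (-0.67) in MDA-MB-231.

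ANXA2 is read by 3 probes on the array, and by the same limits each of the 3 was lower in both lines given the 5'isomiR. Single probes were tested in a separate limma fit, with p-values adjusted over all 13705 probes above background in place of 10491 genes. The probe used above, ILMN_2409167, is the brightest, with deposited intensities of 7486 and 7867 with the 5'isomiR in MCF10A against 14644 and 16807 with the control mimics. The probe ILMN_1711899 gave 1010 and 1086 with the 5'isomiR, against 2738 and 2533 with the controls. The probe ILMN_1755937 gave 377 and 337 with the 5'isomiR, against 687 and 860 with the controls. Their levels with the 5'isomiR were 47.8%, 38.1% and 40.4% of controls in MCF10A cells, and 61.1%, 53.4% and 52.7% in MDA-MB-231, so the probe chosen by brightness showed the smallest fall of the 3. In the comparison of the mimics in MDA-MB-231, where the brightest probe missed the fold limit, ILMN_1711899 stood at 45.9% (adjusted p = 0.00052) and ILMN_1755937 at 53.8% (adjusted p = 0.0094), and both passed. With the canonical mimic none of the 3 probes passed, and they did not move alike. In MCF10A ILMN_1755937 stood at 62.2% of controls (log2 difference -0.69, adjusted p = 0.088), past the fold limit but not the p limit, while the others stood at 81.0%. In MDA-MB-231 ILMN_1711899 was 0.22 above controls on the log2 scale (adjusted p = 0.43), ILMN_1755937 was at -0.03 and ILMN_2409167 at -0.11.

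ANXA2 has processed pseudogenes, near-identical copies of its message elsewhere in the genome, and probes named for them may read ANXA2 itself. The probe sequences were not used here, so which message each one reads is uncertain. ANXA2P1 and ANXA2P3 followed ANXA2. ANXA2P3 had log2 intensities of 6.23 and 6.00 with the 5'isomiR, 7.56 and 7.41 with the canonical mimic, and 7.95 and 7.97 with the controls in MCF10A, without overlap, and stood at 27.8% of controls (adjusted p = 6.2e-05). In MDA-MB-231 it stood at 44.8% (adjusted p = 0.0011). ANXA2P1 stood at 38.7% in MCF10A (adjusted p = 0.00054), with 57.0% in MDA-MB-231 (adjusted p = 0.013). The dimmer of the ANXA2P1 probes, ILMN_1698100, stood at 39.7% in MCF10A cells and 59.7% in MDA-MB-231 and also passed in both lines in the fit over probes. With the canonical mimic in MCF10A the ANXA2P1 probes stood at 64.3% and 64.6% of controls, and neither passed (adjusted p = 0.13 and 0.12 in the fit over probes). ANXA2P2 did not follow. Its single probe gave intensities of 13199 and 15142 with the 5'isomiR in MCF10A against 14338 and 13491 with the controls, and 17346 and 16762 with the 5'isomiR in MDA-MB-231 against 16082 and 16716 with the controls. After normalisation the groups overlapped in both lines. Its log2 difference was 0.05 in MCF10A (95% interval -0.22 to 0.31) and 0.04 in MDA-MB-231 (95% interval -0.23 to 0.31), and these intervals leave out the falls measured by the 3 ANXA2 probes.

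**Figure D4:**
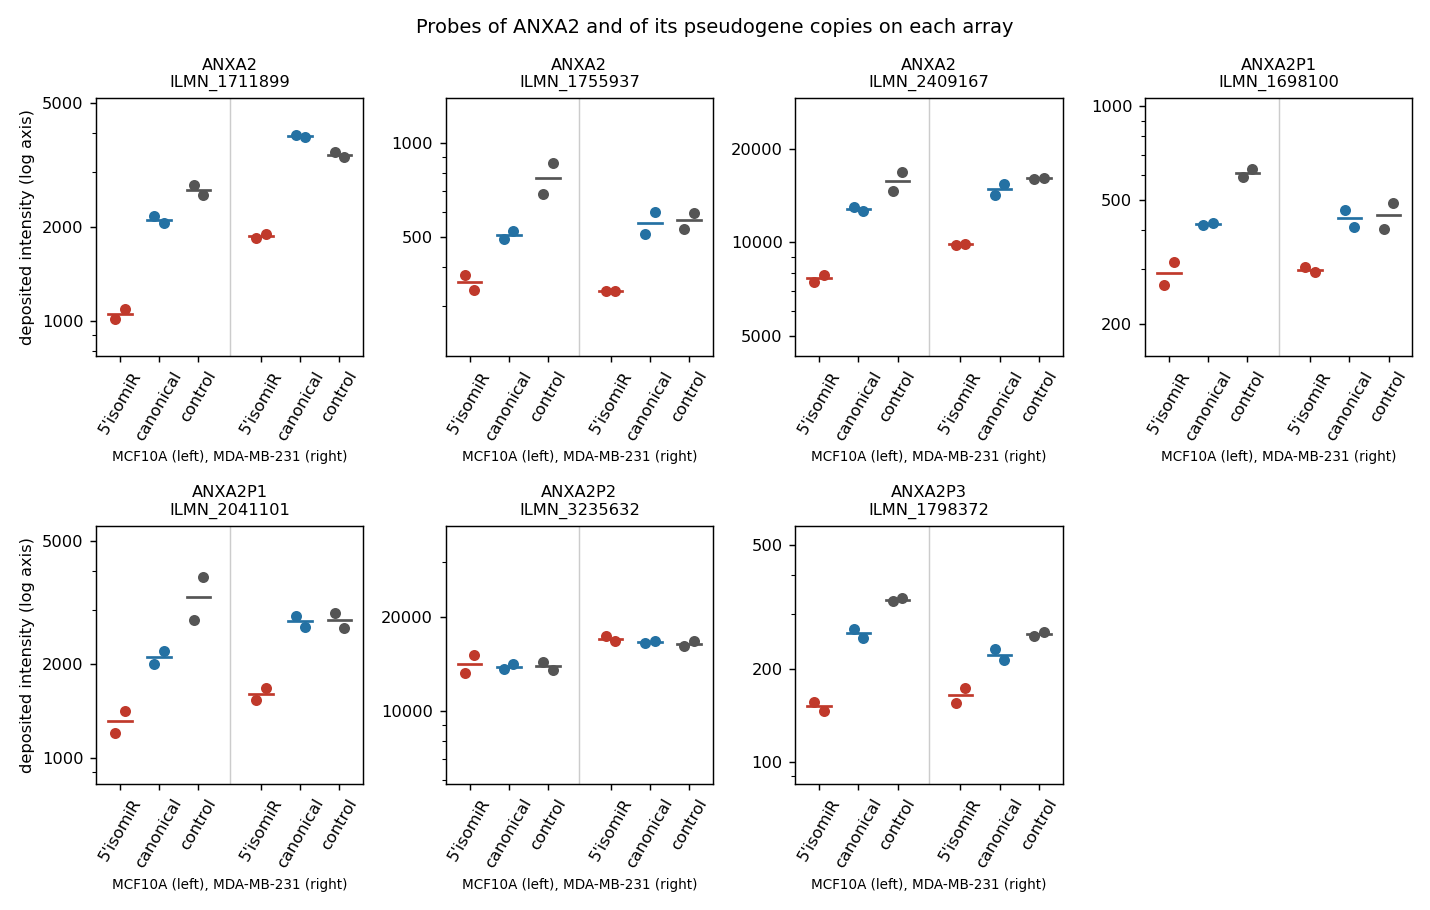
Deposited intensity on a log axis for each probe of ANXA2 and of ANXA2P1, ANXA2P2 and ANXA2P3, with 1 point for each array, a line at the mean of each group, and MCF10A left and MDA-MB-231 right in each panel. The 5'isomiR arrays lie lowest in both lines for every probe but that of ANXA2P2, whose values run from 13199 to 17346 over the 12 arrays.

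ANXA2 was then set against the other annexins array by array, as the deviation from the mean control level of the line minus the median deviation of the 8 others. This score was -1.09 and -1.05 with the 5'isomiR in MCF10A, -0.20 and -0.04 with the canonical mimic, and within 0.02 of 0 on the controls. In MDA-MB-231 it was -0.65 and -0.60 with the 5'isomiR, 0.07 and 0.09 with the canonical mimic, and within 0.08 of 0 on the controls. The control scores of a line are equal and opposite by construction, since deviations are taken from the mean of those same arrays. On the 5'isomiR arrays ANXA2 had the lowest deviation of the 9 annexins in MDA-MB-231, though ANXA7 was close, at -0.67 and -0.66 beside -0.71 for ANXA2. In MCF10A it was second to ANXA3 on both arrays. On the canonical arrays ANXA2 ranked from 4 to 6 from the lowest of 9. With only the annexins above background on every array of the line as the 6 others, a choice made after seeing the data, the score was the same in MCF10A. In MDA-MB-231 it then shrank to -0.54 and -0.49 with the 5'isomiR, and was -0.02 and 0.02 with the canonical mimic. ANXA2 kept the lowest deviation there and its place behind ANXA3 in MCF10A. The score is a description without a test.

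**Figure D5:**
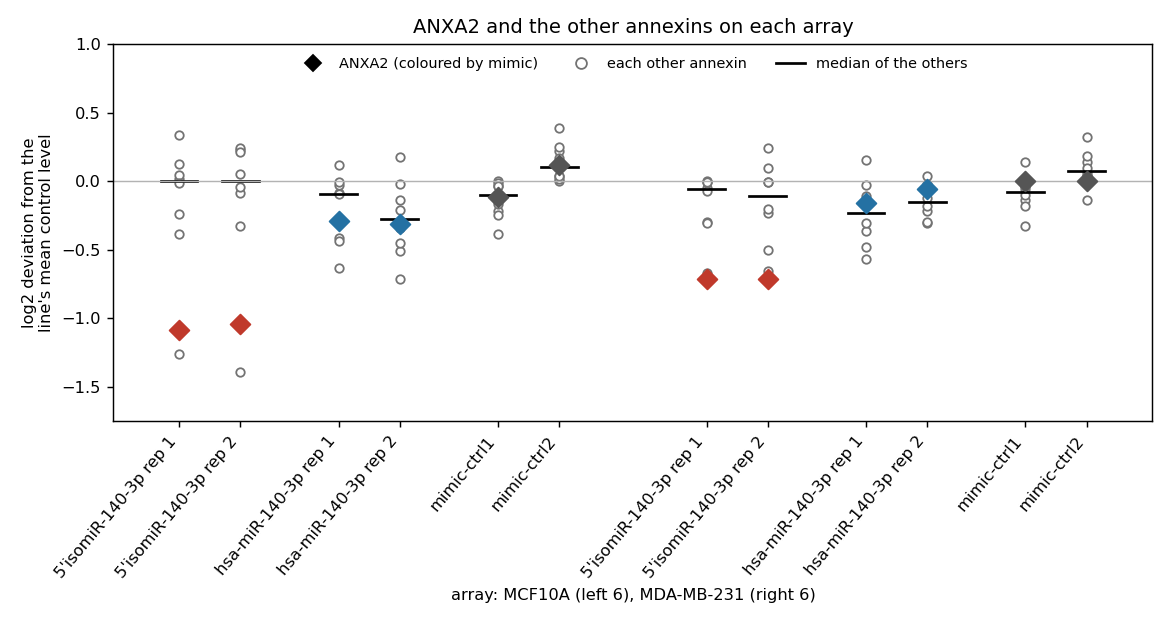
Log2 deviation from the mean control level of the line (vertical axis) on each of the 12 arrays, for ANXA2 (diamonds, coloured by mimic) and for each of the 8 other annexins (open circles), with their median as a bar. ANXA2 lies 1.09 and 1.05 below that median on the 5'isomiR arrays of MCF10A and 0.65 and 0.60 below it on those of MDA-MB-231.

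The lines themselves differed in which annexins they made. Under control mimics, 3 of 9 annexins were higher in MDA-MB-231 than in MCF10A, ANXA5, ANXA6 and ANXA11, where 20.5% of all genes were higher, and 1 was lower, ANXA8, where 19.9% were lower. ANXA8 was above background on all 6 MCF10A arrays and on none of the 6 in MDA-MB-231, and was at least 5.47-fold lower in MDA-MB-231 (adjusted p = 2.1e-08). ANXA6 was the reverse, above background on all MDA-MB-231 arrays and on no MCF10A array, and at least 2.83-fold higher in MDA-MB-231 (adjusted p = 1.8e-07). These folds set the bright group against the background of the dim arrays and are bounds. That of ANXA8 rests on the probe ILMN_2095610 alone. Its other probes were at background on all 12 arrays, except ILMN_1803313, which was above it on 1 MCF10A array. ANXA5 had log2 intensities of 12.75 and 12.95 in MDA-MB-231 against 11.71 and 12.04 in MCF10A, 1.97-fold higher (adjusted p = 0.00019). ANXA11 had 8.97 and 9.04 in MDA-MB-231 against 8.01 and 8.07 in MCF10A, 1.95-fold higher (adjusted p = 6.2e-05). Its second probe, ILMN_2380494, differed by 0.71 on the log2 scale (adjusted p = 0.0022 in the fit over probes), just short of the fold limit. ANXA1 (1.31-fold, adjusted p = 0.044) and ANXA7 (1.49-fold, adjusted p = 0.0042) were short of the fold limit. ANXA2 differed by 0.02 on the log2 scale (95% interval -0.24 to 0.28) on its brightest probe. Its other probes differed between the lines in opposite directions, ILMN_1711899 by 0.38 and ILMN_1755937 by -0.52 (adjusted p = 0.017 for each in the fit over probes), both short of the fold limit, so the probes give no single order of the lines for ANXA2. The deviation of ANXA3 was -0.50 (adjusted p = 0.062).

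Among annexin genes outside the 10 members, ANXA10, best known from gastric epithelium, fell in MDA-MB-231 cells given 5'isomiR-140-3p. Its log2 intensity there was 6.50 and 6.32 with the 5'isomiR, 7.49 and 7.19 with the canonical mimic, and 7.07 and 7.39 with the controls. It stood at 56.6% of controls (log2 difference -0.82, SE 0.22, adjusted p = 0.039) and at 52.5% of the canonical level (adjusted p = 0.032). In MCF10A it was above background on 1 of 2 control arrays and on neither 5'isomiR array, and it was at least 1.11-fold lower (adjusted p = 0.022). ANXA8L1, a near-identical copy of ANXA8 whose signal on an array may not be kept apart from it, had the pattern of ANXA8 between the lines, at least 2.45-fold lower in MDA-MB-231 (adjusted p = 2.2e-07), and did not pass with any mimic. ANXA13 was at background on all arrays, and ANXA2R was above it on 1 array.

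A list of 28 genes tied to annexins was examined beside them, comprising S100 partners, plasminogen system genes, membrane repair proteins and phospholipid scramblases, and 21 were tested. With the 5'isomiR, 1 of 21 was lower in each line, XKR8, which is 4.76% beside 7.34% of all genes in MCF10A and 5.09% in MDA-MB-231. In MCF10A 1 of 21 was higher, S100A4, beside 5.25% of all genes, and in MDA-MB-231 none was, beside 2.41%. These shares are near or below those of all genes and say nothing about the list. With the canonical mimic none passed in either line. S100A10, the partner of ANXA2 in the heterotetramer, did not follow it. Its log2 intensity was 13.71 and 13.61 with the 5'isomiR, 13.42 and 13.30 with the canonical mimic, and 13.77 and 13.85 with the controls in MCF10A, and its difference with the 5'isomiR was -0.15 there (95% interval -0.41 to 0.12, adjusted p = 0.44) and 0.09 in MDA-MB-231 (95% interval -0.18 to 0.36, adjusted p = 0.70). XKR8, a scramblase that caspases activate to expose phosphatidylserine, the lipid that ANXA5 binds, had 5.98 and 6.10 with the 5'isomiR in MDA-MB-231, 7.69 and 7.68 with the canonical mimic, and 7.64 and 7.34 with the controls. It stood at 36.5% of controls there (adjusted p = 0.00063), with no overlap between the 5'isomiR arrays and the others. In MCF10A it was at background on both 5'isomiR arrays (5.22 and 5.32), against 6.82 and 6.37 with the controls, and was at least 1.99-fold lower (adjusted p = 0.00062). S100A4, a partner of ANXA2 linked to metastasis, had 11.31 and 11.24 with the 5'isomiR in MCF10A, 9.59 and 9.58 with the canonical mimic, and 10.47 and 9.44 with the controls, which were far apart. It was 2.50-fold higher than controls (log2 difference 1.32, SE 0.28, adjusted p = 0.0098) and 3.22-fold higher than with the canonical mimic (adjusted p = 0.0031). In MDA-MB-231 it differed by -0.08 (adjusted p = 0.90), and the difference between the lines did not pass (-1.40, adjusted p = 0.077).

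More of the list passed between the lines. Under control mimics 11 of the 21 were higher in MDA-MB-231, where 20.5% of all genes were higher. In the other direction 2 were lower, where 19.9% of all genes were lower. These counts are a description without a test of the list, and the plasminogen genes below were named after their values were seen. Higher ones included the plasminogen activators PLAU (8.20-fold, adjusted p = 4.8e-07) and PLAT (5.22-fold, adjusted p = 4.4e-06), the urokinase receptor PLAUR (log2 difference 0.73, adjusted p = 0.0053) and S100A4 (9.92-fold, adjusted p = 5.9e-06). The lower ones were PLSCR1, a phospholipid scramblase family gene, at 41.0% of MCF10A (adjusted p = 0.00053), and the phospholipase PLA2G4A, which was at background in MDA-MB-231.

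Finally, genes were ranked by the Pearson correlation of their deviations from the control mean of the line with those of ANXA2 over the 12 arrays, as a description. The closest were AP2S1, the small subunit of the clathrin adaptor AP2 (r = 0.980), the phosphatase DUSP18 (r = 0.980), the vesicle tethering subunit TRAPPC1 (r = 0.977), BRI3BP (r = 0.976) and the endocytic adaptor EHBP1 (r = 0.973). The arrays are not independent points, since those of a group share a mimic. AP2S1 stood at 46.4% of controls with the 5'isomiR in MCF10A cells and at 54.9% in MDA-MB-231, beside 47.8% and 61.1% for ANXA2. With the canonical mimic AP2S1 stood at 81.2% in MCF10A cells and 85.0% in MDA-MB-231, and none of these 5 genes passed against controls with the canonical mimic.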

How the data were processed

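Intensities on a linear scale, 1 column per sample, were deposited after normalization by the authors, whose method is not given in the sources used here; no background had been subtracted. A table of signals before normalization has 24 columns of per-sample values with names that no sample's labels hold, and was left out. In R 4.3.3 with limma 3.58.1, normexp correction with 457 olfactory receptor probes in place of negative controls and an offset of 16, quantile normalization and log2 were applied. A probe entered if it exceeded the 0.99 quantile of those probes on 2 or more arrays, and the brightest of a gene was tested. A mean for each of the 6 groups was fitted, with 6 residual and 3.79 prior degrees of freedom and Benjamini-Hochberg adjustment over 10491 genes. An exact test of 2 arrays against 2 cannot go below p = 0.333. The lower fold limit follows the methods, and the upper one follows a legend of the study's supplement. Array probes were named through the platform annotation, with the current RefSeq symbol looked up by gene ID and found for 30072 of 30111 probes. Where every array of a group was at background, folds are bounds, from the mean of the higher of the lowest signal above background and the probe's own on each dim array. The number of arrays limits the precision. Members and lists were chosen with earlier results of these data known. Genes named are all members, other annexin genes, listed partners that passed with a mimic (and S100A10), the 5 genes most like ANXA2, and the members that differed most between lines; PLAU, PLAT, PLAUR, PLSCR1 and PLA2G4A were named after their values were seen. Alternatives changed the background correction, scaling, filter, probe choice, moderation, fit and test, and left out each array. The labels and the methods name different suppliers of the mimics. The fit was tested on simulated data.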

Additional observations from a re-analysis of the deposited data

Results flagged for a closer look

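For 2 genes the effect of 5'isomiR-140-3p against control mimics differed between the lines in a test of that difference itself. For ANXA3 the effect in MDA-MB-231 minus that in MCF10A was 1.19 on the log2 scale (SE 0.29, adjusted p = 0.045), from -0.14 in MDA-MB-231 and -1.33 in MCF10A. For DYSF, dysferlin, a membrane repair protein on the annexin partner list, it was -1.28 (SE 0.32, adjusted p = 0.049), from -0.80 in MDA-MB-231 (adjusted p = 0.051) and 0.49 in MCF10A (adjusted p = 0.17). DYSF was at background on both control arrays and on 1 of the 2 5'isomiR arrays of MCF10A, so its effect there is poorly measured. Groups of 2 arrays are too small for a check of outlying arrays.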

How the results depend on the processing

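ANXA2 kept its direction with the 5'isomiR in both lines under every alternative run. After adjustment, the unpaired t-test passed 0 annexins with the 5'isomiR against controls in either line, or against the canonical mimic, and 1 (ANXA8) between lines. It gave ANXA2 -1.07 (adjusted p = 0.18) against controls and -0.76 (adjusted p = 0.075) against the canonical mimic in MCF10A, and could not be computed for ANXA2 against controls in MDA-MB-231, where the spread was 0. Unadjusted, it passed ANXA2 and ANXA3 against controls in MCF10A. In MDA-MB-231 against controls, 1 annexin passed with the line fitted on its own or with all probes averaged and no filter, an alternative chosen after seeing the data like the other probes of ANXA2. Against the canonical mimic there, 0 passed with the line fitted on its own and 2 with the mean of all probes, where ANXA2 reached -0.87. Its probes ILMN_1711899 and ILMN_1755937 gave -1.12 and -0.89. For ANXA2 with the canonical mimic in MDA-MB-231, the mean of all probes gave 0.026 and the probe ILMN_1711899 0.22 in place of -0.11, none past the test. The line difference of ANXA3 was lost with a looser filter or none, leaving 0. Leaving out each array gave 1 to 2 annexins with the 5'isomiR in MDA-MB-231, 1 to 2 against the canonical mimic in MCF10A, 0 to 1 in MDA-MB-231, and 0 to 1 for the line difference. ANXA2 against the others, with the mean in place of the median, was -0.91 in MCF10A cells and -0.54 in MDA-MB-231 with the 5'isomiR, and on deposited values -1.02 in MCF10A, with 0.036 for the canonical mimic in MDA-MB-231. With only annexins above background on every array of the line as the others, chosen after seeing the data, it was -0.51 with the 5'isomiR and -0.0012 with the canonical mimic in MDA-MB-231. With the replicate number as a block, ANXA2 against the canonical mimic was -0.76 (adjusted p = 0.0032) in MCF10A cells and -0.60 (adjusted p = 0.014) in MDA-MB-231, and no call of an annexin changed. Deviations of same-numbered mimic arrays correlated at r = -0.047 to 0.029, so no pairing by number was seen. This cannot exclude that they were handled together.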
